A study of Mus musculus with 16 samples.

Results

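Transcripts of 10 genes that hydroxylate, fold, trim and cross-link collagen were followed in the gastrocnemius, a muscle of the calf, of normal and tumor-bearing mice. The genes were taken by symbol and are 10 of the 21923 genes in the table: the hydroxylases P4ha1, P4ha2, Plod1 and Plod2, the chaperone Serpinh1, the procollagen protease Bmp1 with its enhancer Pcolce, and the lysyl oxidases Lox, Loxl1 and Loxl2. All 10 passed the filter on low counts in every comparison.

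Poly(A) RNA of adult mice was sequenced in 16 libraries, 4 in each of 4 groups, with each library taken here as 1 mouse. NOR mice had PBS injected where the others had tumor cells, so they bore no tumor, and had PBS daily from day 9. The CAC group bore subcutaneous tumors of unmodified cells and were injected with PBS daily from day 9. AM mice bore the same kind of tumor and were injected from day 9 with amiloride, a potassium-sparing diuretic, at 2 mg/kg daily. KD mice bore tumors of cells carrying shRNAs against Rab27a and Rab27b, GTPases of exosome release, and were injected with PBS. The knock-down was made in the tumor cells, so the RNA of the muscle holds no check of it. In every group replicates 1 and 2 are labelled C57BL/6, the host strain of the lung carcinoma line LLC, while replicates 3 and 4 are labelled BALB/c, the host strain of the colon carcinoma line CT26, so that strain and tumor line cannot be told apart. Muscles were taken on day 30.

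Between 35913190 and 61032708 reads were counted on genes in a library. The summed level of 6 muscle fibre markers, among them Acta1 and Ckm, was 53690 to 175800 CPM (counts scaled to a common library size with TMM factors). In 1 library, KD replicate 3, all 4 Y-linked genes checked (Ddx3y, Eif2s3y, Kdm5d and Uty) stood at 0, and in the other 15 libraries their sum was 110 to 172.5 CPM. The labels name both sexes for the BALB/c mice. The sum of 8 B and T lymphocyte markers was below 10 CPM in 5 libraries (NOR replicate 1, CAC replicates 1 and 4, and KD replicates 2 and 3) and 32.5 to 379 CPM in the other 11.

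Collagen chains enter the endoplasmic reticulum, where prolyl hydroxylases stabilize the triple helix, lysyl hydroxylases prepare lysines for cross-links and sugars, and Serpinh1 binds the folded helix on its way to the Golgi. Outside the cell, Bmp1 cuts off the carboxy-terminal propeptide of the procollagen, Pcolce speeds this cut, and the lysyl oxidases oxidize lysines of collagen and elastin so that the fibres cross-link. In muscle these genes are known mainly from fibroblasts and tendon cells, which lay down the matrix around the fibres.

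The hydroxylase genes lie on 4 chromosomes of the GRCm38 mouse genome (GENCODE M21), and the positions of the lysyl oxidase genes are given with their values. P4ha1 (ENSMUSG00000019916) spans chromosome 10 from 59323296 to 59373304 on the plus strand. P4ha2 (ENSMUSG00000018906) spans chromosome 11 from 54100095 to 54131665 on the plus strand. Both encode catalytic alpha subunits of collagen prolyl 4-hydroxylase. Plod1 (ENSMUSG00000019055), on chromosome 4 from 147909753 to 147936767 on the minus strand, and Plod2 (ENSMUSG00000032374), on chromosome 9 from 92542223 to 92608428 on the plus strand, encode lysyl hydroxylases, of which that of Plod2 acts on the collagen telopeptides. Serpinh1 (ENSMUSG00000070436) spans chromosome 7 from 99345376 to 99353239 on the minus strand. Bmp1 (ENSMUSG00000022098) spans chromosome 14 from 70474558 to 70520234 on the minus strand, and Pcolce (ENSMUSG00000029718) spans chromosome 5 from 137605103 to 137613784 on the minus strand. Of the 31-base words in Loxl2 transcripts, 46.4% also occur in other genes, among which the near copy Gm21451 shares the most. Loxl2 values are therefore uncertain, because reads could be split between the copies. In the other 9 genes this share was at most 5.87%. Antisense transcripts overlap Pcolce, Lox and Loxl2, and since the strand setting of the counting is not given, their reads cannot be told apart from those of these genes.

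Of the 10 genes, 5 (P4ha1, P4ha2, Plod1, Serpinh1 and Pcolce) had an entry in the RefSeq promoter table (GRCm38.p6). The 250 bases before the start are shown for P4ha1 and P4ha2, which encode the same kind of subunit but of which P4ha1 alone was downregulated in the CAC gastrocnemius, and for Serpinh1, which fell there too. P4ha1 is known from other tissues as a target of hypoxia-inducible factors, whose binding sites contain the letters ACGTG or GCGTG, and capitals mark these letters on either strand. The windows lie at chr10:59323046-59323295 (plus strand), chr11:54100674-54100923 (plus strand) and chr7:99353240-99353489 (minus strand). The P4ha1 and Serpinh1 windows overlap no annotated gene, and the P4ha2 window lies inside an intron of P4ha2, whose other transcripts start upstream.
P4ha1: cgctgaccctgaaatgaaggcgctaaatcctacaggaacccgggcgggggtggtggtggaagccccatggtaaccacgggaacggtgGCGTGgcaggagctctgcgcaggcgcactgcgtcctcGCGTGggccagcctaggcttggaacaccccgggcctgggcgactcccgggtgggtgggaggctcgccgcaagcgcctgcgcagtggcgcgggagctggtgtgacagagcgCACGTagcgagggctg
P4ha2: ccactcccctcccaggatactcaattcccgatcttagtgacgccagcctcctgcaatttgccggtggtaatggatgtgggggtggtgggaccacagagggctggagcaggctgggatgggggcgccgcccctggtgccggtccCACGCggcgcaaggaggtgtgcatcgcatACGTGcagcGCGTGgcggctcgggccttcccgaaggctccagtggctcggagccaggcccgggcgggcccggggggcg
Serpinh1: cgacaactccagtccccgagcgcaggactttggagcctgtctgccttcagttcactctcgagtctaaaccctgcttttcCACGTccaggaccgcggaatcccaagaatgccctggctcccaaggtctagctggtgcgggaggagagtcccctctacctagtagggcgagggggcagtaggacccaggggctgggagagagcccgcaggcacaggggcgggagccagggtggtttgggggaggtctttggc
The P4ha1 window held ACGTG at 1 place and GCGTG at 2, the P4ha2 window held ACGTG at 1 place and GCGTG at 2, and the Serpinh1 window held ACGTG at 1 place, with no overlap between marked sites. The Plod1 and Pcolce windows, which are not shown, each held GCGTG at 1 place, so that all 5 windows held a core, also that of Plod1, which was no DEG. At least 1 of these cores occurred in 38.6% of the 32851 promoter windows of this length in the RefSeq table (ACGTG in 16.6%, GCGTG in 28.2%). The letters GAANNTTC, part of the heat shock element through which Serpinh1 is known to be induced, occurred in 6.69% of windows and in 0 of the 5 found here, on either strand. A match of letters is a description and not a binding site.

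Relative to the NOR gastrocnemius, the CAC gastrocnemius had lower levels of most of these transcripts and a higher level of 1. Of the 10 genes, 6 were downregulated (P4ha1, Serpinh1, Bmp1, Pcolce, Loxl1 and Loxl2) and 1, Lox, was upregulated. Of all 14666 genes tested, 5.13% were downregulated and 4.32% upregulated, together 9.45%. A gene was called a DEG at an FDR (Benjamini-Hochberg) up to 0.05 in the quasi-likelihood test of edgeR if its fold was 1.5 or more, or 0.667 or less. For all 7 DEGs every CAC mouse lay beyond every NOR mouse, as held for 22.2% of genes (10.3% lower and 12.0% higher). In whole muscle, fewer cells that express a gene and less RNA per cell cannot be told apart.

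In the AM gastrocnemius relative to the CAC gastrocnemius, 4 of the 10 genes were upregulated (Bmp1, Pcolce, Loxl1 and Loxl2) and 0 were downregulated, where 1.63% and 2.03% of all 14674 genes tested were (together 3.66%). In these 4 genes and in Serpinh1 every AM mouse was above every CAC mouse, as held for 5.99% of genes. In the KD gastrocnemius relative to the CAC gastrocnemius, 0 of the 10 were DEGs in edgeR, DESeq2 or limma-voom, beside 0.00685% of all 14593 genes in edgeR (1 gene), 340 genes in DESeq2 and 0 in limma-voom. An unadjusted p below 0.05 was reached in edgeR by 3 of the 10 (Serpinh1, Lox and Loxl2) and by 11.1% of all genes. All 3 comparisons use the same 4 CAC mice, so their values are set side by side below and are not counted as separate evidence. The plot of the fold changes shows each of the 10 genes in the 3 comparisons.

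**Figure D1:**
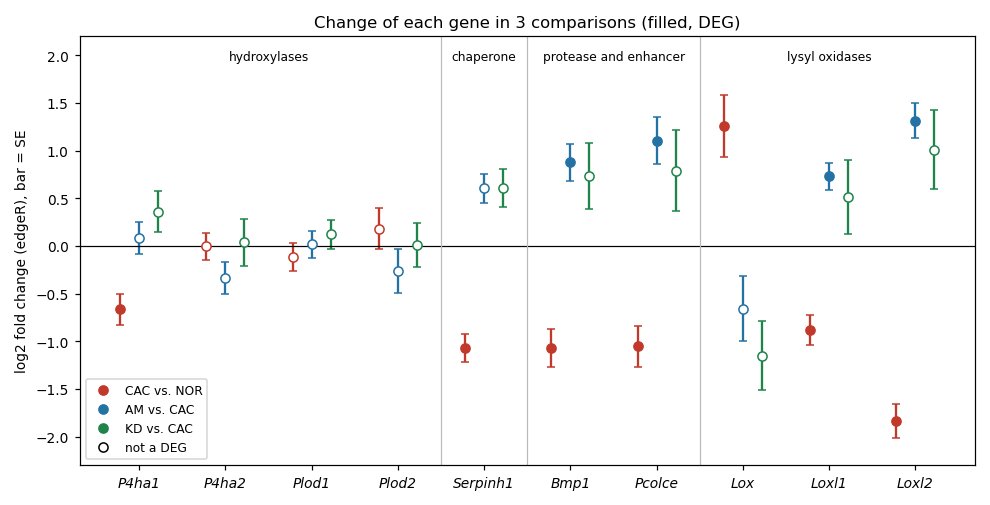
Log2 fold change (y axis, edgeR; bars, SE) of the 10 genes, ordered by role on the x axis, in the CAC group against NOR and in the AM and KD groups against CAC, with 4 mice per group. Filled points are DEGs, of which there are 7 against NOR, 4 for AM and 0 for KD mice.

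Among the prolyl hydroxylases, P4ha1 was lower in the CAC gastrocnemius and P4ha2 did not pass the test. P4ha1 stood at 59.1, 56.6, 54.3 and 40.5 CPM in NOR replicates 1 to 4 and at 32.8, 34.3, 25.4 and 40.4 CPM in the CAC replicates. All CAC mice were below all NOR mice, although NOR replicate 4 and CAC replicate 4 nearly met. The log2 fold change of P4ha1 was -0.66 (SE 0.165, edgeR FDR 0.0328), and the exact permutation test on CPM gave p = 0.0286, the smallest that 4 mice against 4 allow. The FDR of P4ha1 rose to 0.0777, 0.0892, 0.0857, 0.0797 and 0.0642 without NOR replicate 1, NOR replicate 2, NOR replicate 3, CAC replicate 1 and CAC replicate 2 in turn, and without CAC replicate 3 the fold change (log2 -0.54) missed the limit. With the replicate number as a block its FDR was 0.0809, and with all 16 libraries in 1 fit 0.0534. In AM mice P4ha1 stood at 26.9, 36.8, 35.3 and 41.1 CPM, within and just above the CAC range. The AM vs. CAC log2 difference was 0.08 (edgeR FDR 0.835), and AM vs. NOR gave -0.58 (SE 0.152, edgeR FDR 0.518). KD mice stood at 28.7, 49.1, 56.3 and 37.6 CPM and overlapped both other groups (KD vs. CAC 0.36 on the log2 scale, edgeR FDR 0.588).

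P4ha2 stood at 38.1, 29.5, 28.2 and 26.5 CPM in NOR and at 34.3, 29.6, 25.6 and 32.5 CPM in CAC mice. The groups overlapped, with a log2 difference of -0.01 (SE 0.141, edgeR FDR 0.987). In AM mice it was 18.6, 20.7, 26.6 and 30.3 CPM, lowest in the mice labelled C57BL/6, and in KD mice 19.1, 41.7, 40.8 and 24.4 CPM, with replicates 2 and 3 above every other library. Neither difference from CAC passed the test (log2 -0.34 with FDR 0.291 in AM and 0.04 with FDR 0.983 in KD, edgeR). P4ha2 in AM vs. CAC was also the only one of 30 tests of a strain by condition interaction in these genes with an unadjusted edgeR p below 0.05 (FDR 0.373, log2 0.66 higher in the mice labelled BALB/c). Such a p was found in 4.89% of all genes in CAC vs. NOR, in 12.4% for AM against CAC and in 5.65% for KD against CAC. Of the 30 interactions, 0 reached the FDR limit in edgeR, DESeq2 or limma-voom. Over all genes tested 0 interactions did in edgeR and limma-voom, and in DESeq2 125 did for CAC against NOR, 448 for AM against CAC and 99 for KD against CAC.

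Compared per length of transcript, P4ha2 stood above P4ha1 in NOR mice. In FPKM, which the authors computed with 1 length per gene, P4ha2 was at 25.0 ± 1.90 and P4ha1 at 16.3 ± 2.24 in NOR mice (SD, n = 4), and the lengths that the values imply are 1175 and 3117 bases, so the order rests on those lengths. The share of P4ha1 in the FPKM of the pair was 36.6% to 42.1% in NOR, 26.5% to 31.9% in CAC, 33.4% to 40.1% in AM and 30.7% to 36.8% in KD mice. The CAC range lay below those of NOR and AM and overlapped that of KD. These shares were looked at after the values had been seen and were not tested.

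The lysyl hydroxylases did not pass the test in any comparison. Plod1 was at 92.1 ± 9.19 CPM in NOR, 85.2 ± 16.6 in the CAC group, 85.8 ± 8.40 in AM and 92.8 ± 5.46 in KD mice (SD, n = 4), and its log2 differences from CAC vs. NOR to KD vs. CAC were -0.11, 0.02 and 0.12 (edgeR FDR 0.672, 0.962 and 0.844). Plod2 had means of 5.25 ± 0.840 (NOR), 5.96 ± 1.45 (CAC), 4.96 ± 1.19 (AM) and 6.02 ± 1.20 CPM (KD). Its log2 differences were 0.18, -0.26 and 0.01 (edgeR FDR 0.634, 0.567 and 0.999). For both genes all 4 groups overlapped. Plod2 made up 1.84% to 3.45% of the FPKM of the pair in the 16 mice.

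The chaperone Serpinh1 was lower in the CAC gastrocnemius than in any NOR muscle. It stood at 114, 79.8, 103 and 105 CPM in NOR and at 53.5, 46.4, 38.5 and 52.8 CPM in CAC mice. The log2 fold change was -1.07 (SE 0.145, edgeR FDR 0.00444), a CAC mean at 0.476 of the NOR mean (exact permutation p = 0.0286), and Serpinh1 stayed a DEG with each of the 8 libraries left out in turn. In AM mice it was 60.7, 77.5, 65.1 and 86.3 CPM, above every CAC mouse and, in all but replicate 4, below every NOR mouse. The AM vs. CAC difference was 0.60 on the log2 scale (SE 0.149) and just missed the limit (edgeR FDR 0.0559, exact permutation p = 0.0286). It passed in DESeq2, with upper-quartile scaling and with a filter of 1 CPM, and over all alternatives the FDR was 0.00510 to 0.344. KD mice stood at 83.9, 71.7, 51.3 and 83.3 CPM, of which replicate 3 lay within the CAC range (log2 0.61, SE 0.199, edgeR FDR 0.339). Against NOR, Serpinh1 was at -0.46 in AM (edgeR FDR 0.518) and at -0.45 in KD mice (FDR 0.999).

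Bmp1 and Pcolce, the protease and its enhancer, both fell in the CAC gastrocnemius. Bmp1 stood at 59.3, 46.7, 43.2 and 50.2 CPM in NOR and at 23.7, 21.8, 16.9 and 32.5 CPM in CAC mice, with a gap between the groups and a log2 fold change of -1.07 (SE 0.197, edgeR FDR 0.0122). Pcolce stood at 108, 85.5, 83.9 and 88.2 CPM in NOR and at 49.96, 41.8, 26.9 and 57.8 CPM in CAC mice, also with a gap (log2 -1.05, SE 0.218, edgeR FDR 0.0179). For both genes CAC replicate 3 was lowest and CAC replicate 4 highest within the CAC group, and both stayed DEGs with each library left out in turn.

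Both were upregulated in AM relative to CAC mice. Bmp1 rose to 43.2, 35.9, 49.0 and 45.6 CPM (log2 0.88, SE 0.191, edgeR FDR 0.0392) and Pcolce to 102, 79.6, 124 and 72.8 CPM (log2 1.11, SE 0.247, edgeR FDR 0.0428). All AM mice were above all CAC mice in both genes (exact permutation p = 0.0286 for each), and for Bmp1 AM replicates 3 and 4 were within the NOR range. Leaving out any library but CAC replicate 4 raised the FDR of Bmp1 to between 0.0631 (without AM replicate 2) and 0.104 (without CAC replicate 1), and that of Pcolce to between 0.0651 (without CAC replicate 3) and 0.104 (without AM replicate 3). With all 8 libraries the calls of Bmp1 and Pcolce were also lost with labelled strain as a covariate (FDR 0.0615 and 0.0727) and with the replicate number as a block (0.149 and 0.209).

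In KD mice Bmp1 stood at 49.3, 22.1, 27.8 and 58.1 CPM and Pcolce at 123, 40.8, 41.3 and 98.4 CPM. Replicates 2 and 3 were within the CAC range of both genes, and replicates 1 and 4 were above it. The differences from CAC did not pass the test (log2 0.73, SE 0.342, FDR 0.473 for Bmp1 and log2 0.79, SE 0.420, FDR 0.536 for Pcolce, edgeR). The plot of all mice shows that KD replicates 2 and 3 lay apart from replicates 1 and 4 in all genes but Lox. They were lower in Serpinh1, Bmp1, Pcolce, Loxl1 and Loxl2, and higher in the hydroxylase genes P4ha1, P4ha2, Plod1 and Plod2.

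**Figure D2:**
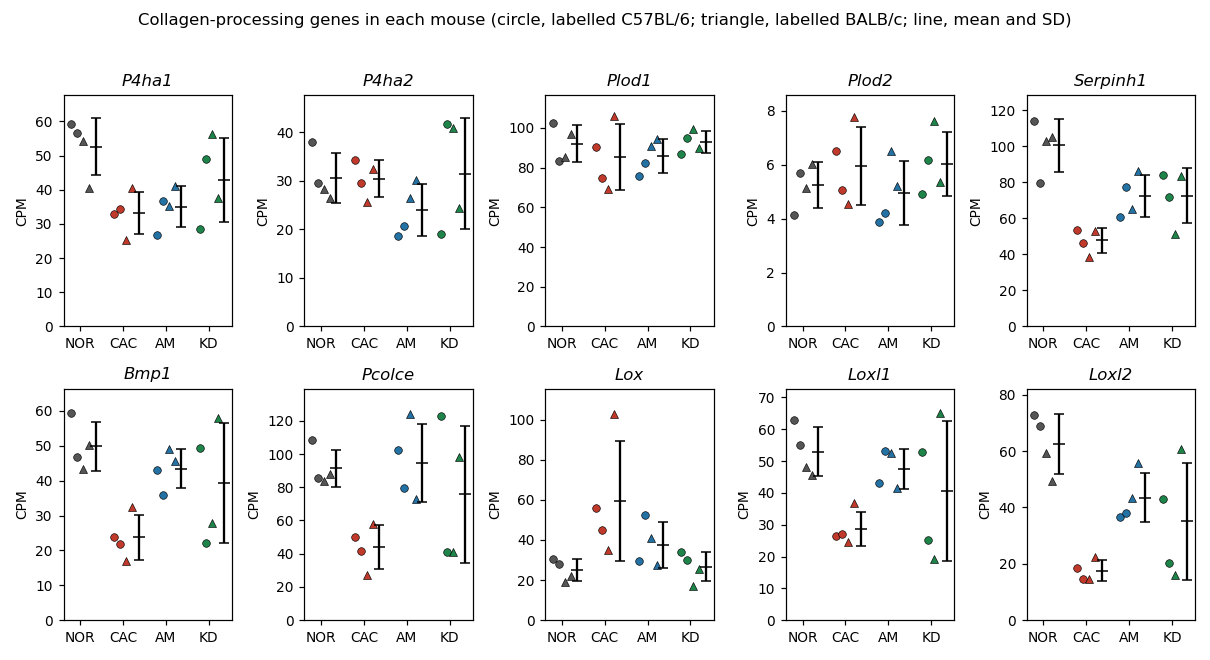
CPM (y axis, from 0) of each of the 10 genes in each mouse by group (x axis, 4 mice each, replicates 1 to 4 from left to right). Circles are mice labelled C57BL/6, triangles mice labelled BALB/c, and the bar beside them is the mean with its SD. CAC mice lie below NOR mice for 6 genes and above them for Lox, and in all genes but Lox the inner 2 KD mice sit apart from the outer 2, above them in P4ha1, P4ha2, Plod1 and Plod2 and below them in the others.

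Lox was the 1 gene of the 10 that rose in the CAC gastrocnemius. It (ENSMUSG00000024529) lies on chromosome 18 from 52516067 to 52529867 on the minus strand. Its level was 30.8, 27.9, 18.9 and 21.9 CPM in NOR and 55.7, 44.8, 35.1 and 103 CPM in CAC mice, so that every CAC mouse was above every NOR mouse and CAC replicate 4 was far above the other 3. The log2 fold change was 1.26 (SE 0.328, edgeR FDR 0.0381, exact permutation p = 0.0286). Without CAC replicate 4 it was 0.86 and remained a call (FDR 0.0413), and without NOR replicates 1 to 4 and CAC replicate 1 the FDR was 0.0602, 0.0844, 0.107, 0.0871 and 0.0743. The call was also lost with labelled strain as a covariate (log2 1.26, FDR 0.0517) and with the replicate number as a block (log2 1.16, FDR 0.0569). In AM mice Lox was at 29.4, 52.4, 41.1 and 27.3 CPM, which overlapped both NOR and CAC (log2 -0.66 against CAC, SE 0.342, edgeR FDR 0.311). Against NOR it was at 0.61 (SE 0.233, edgeR FDR 0.531). In KD mice it was at 34.0, 30.3, 17.0 and 25.5 CPM, each below every CAC mouse, as held for 3.27% of genes (exact permutation p = 0.0286). The KD vs. CAC log2 difference was -1.15 (SE 0.363), but the edgeR FDR of 0.315 missed the limit, as did those of DESeq2 (0.0602) and limma-voom (0.321), and over all alternatives it was 0.0602 to 0.993. Without KD replicate 3, the library with no Y-linked counts, the difference was -0.98.

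Loxl1 and Loxl2 fell where Lox rose. Loxl1 (ENSMUSG00000032334) spans chromosome 9 from 58287738 to 58313186 on the minus strand, and Loxl2 (ENSMUSG00000034205) spans chromosome 14 from 69609068 to 69695834 on the plus strand. Loxl1 stood at 62.8, 55.0, 48.1 and 45.7 CPM in NOR and at 26.5, 27.0, 24.5 and 36.7 CPM in CAC mice (log2 -0.88, SE 0.155, edgeR FDR 0.0106). In the fit of all mice of both groups Loxl2 had the largest change of the 10 genes, with the limit given above for its near copy. It went from 72.9, 68.9, 59.3 and 49.3 CPM in NOR to 18.5, 14.6, 14.7 and 22.3 CPM in CAC mice, a CAC mean at 0.280 of the NOR mean (log2 -1.84, SE 0.179, edgeR FDR 0.00197). In the mice labelled BALB/c alone the change of Lox was larger (log2 1.74 against -1.56 for Loxl2). Neither gene had an overlap between the groups, and both stayed DEGs with each library left out in turn.

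In AM mice Loxl1 was at 43.0, 53.2, 52.6 and 41.4 CPM, above the CAC group and overlapping the NOR group (log2 0.73 against CAC, SE 0.145, edgeR FDR 0.0283). Without any library but CAC replicate 4 the FDR of Loxl1 was 0.0581 (without AM replicate 4) to 0.0899 (without CAC replicate 1), and it was 0.0524 with labelled strain as a covariate and 0.170 with the replicate block. Loxl2 was at 36.6, 38.1, 43.2 and 55.9 CPM in AM mice, above every CAC mouse and, in all but replicate 4, below every NOR mouse. Its log2 fold change was 1.31 (SE 0.185, edgeR FDR 0.0104), and it alone of the 4 genes remained a DEG with each of the 8 libraries left out and with strain as a covariate. With the replicate block (log2 1.31, FDR 0.0737) and with all 16 libraries in 1 fit (log2 1.31, FDR 0.0570) Loxl2 too was no DEG. The difference of Loxl2 between AM and NOR mice was -0.51 (SE 0.161, edgeR FDR 0.518).

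In KD mice Loxl1 stood at 53.0, 25.2, 19.3 and 65.1 CPM and Loxl2 at 42.9, 20.3, 16.1 and 60.9 CPM. As for Bmp1 and Pcolce, replicates 2 and 3 were within or below the range of the CAC mice and replicates 1 and 4 well above them. The log2 differences from CAC were 0.51 (SE 0.384, FDR 0.686) and 1.01 (SE 0.417, FDR 0.421) in edgeR. Without KD replicate 3 that of Loxl2 was 1.25 (FDR 0.427). Without that library Bmp1 was at 0.88, Pcolce at 1.002, Loxl1 at 0.75 and Serpinh1 at 0.75 (edgeR FDR 0.398 to 0.530), and again 0 of the 10 were DEGs. Leaving out a high library lowered the differences. Without KD replicate 4 Loxl2 was at 0.60, Bmp1 at 0.48, Pcolce at 0.64, Loxl1 at 0.18 and Serpinh1 at 0.53, and without KD replicate 1 they were at 0.89, 0.59, 0.44, 0.34 and 0.52. A split of the libraries at 10 CPM of lymphocyte markers was chosen after seeing the data and divides the KD mice into the same high and low pairs, so its values describe these pairs again, with 2 mice against 2. With only the libraries of at least 10 CPM, which leaves KD replicates 1 and 4 against CAC replicates 2 and 3, Loxl2 was at 1.83 (FDR 0.146), and with only those below it, KD replicates 2 and 3 against CAC replicates 1 and 4, it was at -0.15 (FDR 0.866). Bmp1, Pcolce and Loxl1 were at 1.48, 1.69 and 1.20 in the first and at -0.16, -0.38 and -0.49 in the second of these sets.

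KD replicates 2 and 3 also had the lowest sums of 10 fibroblast markers, 2004 and 2045 CPM against 4333 and 5457 in KD replicates 1 and 4. The ranges in the other groups were 4346 to 5377 (NOR), 2300 to 3916 (CAC) and 3470 to 4788 CPM (AM). Most of the KD sums came from Gsn (1007 and 1216 against 2814 and 3754 CPM) and Dcn (581 and 431 against 850 and 983). Not all markers followed, since Ly6a (101 and 66.3 against 71.8 and 54.5 CPM), Cd34 (156 and 160 against 150.5 and 166) and Mfap5 (33.4 and 24.2 against 25.4 and 37.65) overlapped. The other fibroblast markers were lower in KD replicates 2 and 3. The 7 tenocyte markers gave 271 and 324 CPM in KD replicates 2 and 3, 711 and 514 in replicates 1 and 4, 626 to 1063 in NOR, 188 to 441 in CAC and 511 to 802 in AM mice. Both libraries further had the lowest sums of 7 macrophage markers (68.9 and 39.1 CPM, against 100.3 to 323 in the other 14). The sums of adipocyte markers were 360.2 and 498 CPM in KD replicates 2 and 3 against 2477 and 2514 in replicates 1 and 4, and those of satellite cell markers 20.7 and 21.6 against 40.7 and 34.4 CPM. The satellite cell gap lay mostly in Vcam1 (11.9 and 11.65 against 33.2 and 25.6 CPM), and Calcr was lower too (0.55 and 0.53 against 1.51 and 1.07). Pax7 overlapped (3.92 and 6.23 against 4.29 and 4.995 CPM) and Myf5 was higher in replicates 2 and 3 (4.32 and 3.19 against 1.68 and 2.79). The sums of muscle fibre markers were higher in KD replicates 2 and 3 (153100 and 149800 against 92780 and 114900 CPM), as were those of endothelial markers (1742 and 1562 against 1224 and 988) and smooth muscle and pericyte markers (1461 and 1358 against 1055 and 1099). The erythroid sum was 21330 CPM in KD replicate 2 and 2178 to 3919 in the other KD mice. None of the markers that define these cells, among them Pdgfra and Tnmd, stood at 0 in a library. The part of these cell types in the values of the 10 genes was not tested.

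Of the cell type markers tested in CAC vs. NOR, 1 of 10 fibroblast markers (Dpt, -1.47) and 4 of 7 tenocyte markers (Tnmd at -3.38, Kera at -4.22, Comp at -2.38 and Fmod at -1.77 on the log2 scale) were downregulated, with list medians of -0.59 and -1.77 where the median of all genes was 0.01. In AM vs. CAC the same 5 markers were upregulated (Dpt by 1.25, Tnmd by 2.49, Kera by 3.47, Comp by 2.09 and Fmod by 1.37), as was 1 of 7 macrophage markers (Cx3cr1, 1.47). The tenocyte marker Scx went the other way, with 7.74 to 18.5 CPM in NOR, 8.85 to 18.5 in CAC and 6.96 to 9.18 in AM mice. Its log2 differences were 0.22 in CAC vs. NOR and -0.71 in AM vs. CAC, and it was no DEG in either. Among smooth muscle and pericyte markers 1 of 7 fell in CAC mice (Cspg4, -0.66), among endothelial markers 2 of 7 rose (Vwf and Pecam1, 0.87 and 0.77), and among cartilage markers 2 of 3 tested fell (Col2a1 and Chad). All 5 erythroid markers rose in CAC mice (median 2.30). Of the muscle fibre, macrophage, lymphocyte, adipocyte and satellite cell markers 0 were DEGs in CAC vs. NOR, with list medians of -0.53, 0.40, -0.63, 0.41 and -0.56. All 6 muscle fibre markers had log2 values below 0, and their summed level was 115000 to 175800 CPM in NOR and 53690 to 120200 CPM in CAC mice, which overlap. All 8 lymphocyte markers were below 0 too, with sums of 3.96 to 220 CPM in NOR and 1.37 to 294 CPM in CAC mice. In AM vs. CAC all 8 lymphocyte, all 4 satellite cell and 5 of 6 muscle fibre markers were above 0, with 0 DEGs and medians of 0.79, 0.27 and 0.41. The other medians there were 0.40 (fibroblast), 1.37 (tenocyte), 0.12 (smooth muscle and pericyte), -0.06 (endothelial), -0.07 (macrophage), 0.24 (adipocyte) and 0.20 (erythroid). The part of these markers in the results was not tested.

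The other genes of collagen maturation changed in part. Of 24 such genes 23 were tested, and in CAC mice 6 were downregulated and 2 upregulated, with a median of -0.24 on the log2 scale. Those that fell were Adamts2 (-1.40, SE 0.166) and Adamts14 (-1.20), which cut off the amino-terminal propeptide, the prolyl 3-hydroxylase gene P3h3 (-0.91), the collagen galactosyltransferase gene Colgalt2 (-0.79), Pcolce2 (-0.61), a second enhancer of the Bmp1 cut, and Sparc (-1.24), a collagen-binding protein. Those that rose were Tll1 (1.14), a protease of the Bmp1 family, and Tmem38b (1.20), an ion channel of the endoplasmic reticulum. Relative to CAC, in AM mice Adamts2 (1.21) and Sparc (0.90) were upregulated and Tmem38b (-1.14) was downregulated. P4hb, the beta subunit shared by the prolyl 4-hydroxylases, was at 0.47 in CAC mice (edgeR FDR 0.0285), below the fold change limit, and was looked up after the values had been seen.

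The collagen chains, substrates of these enzymes, had the larger fold changes. Of 11 fibrillar collagen chain genes 10 were downregulated in CAC mice, with a median log2 fold change of -2.44, against a median of -0.77 over the 10 enzyme genes. The fold changes of the main chains were -3.61 (Col1a1), -3.12 (Col1a2) and -3.003 (Col3a1) on the log2 scale. The minor chains Col5a1, Col5a2 and Col5a3 had -2.44, -1.56 and -2.06, and Col11a1, Col11a2, Col24a1 and Col2a1 had -2.77, -2.29, -1.55 and -5.20. In AM mice relative to CAC 8 of 10 chains tested were upregulated (median 2.08), Col1a1 by 3.02, Col1a2 by 2.52, Col3a1 by 2.67, Col5a1, Col5a2 and Col5a3 by 1.99, 1.28 and 1.80, and Col11a1 and Col11a2 by 2.16 and 2.25. In KD vs. CAC mice 0 of 11 were DEGs in edgeR, and all 11 had a higher mean (median 1.83). The plot of the related lists sets these beside the 10 genes.

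**Figure D3:**
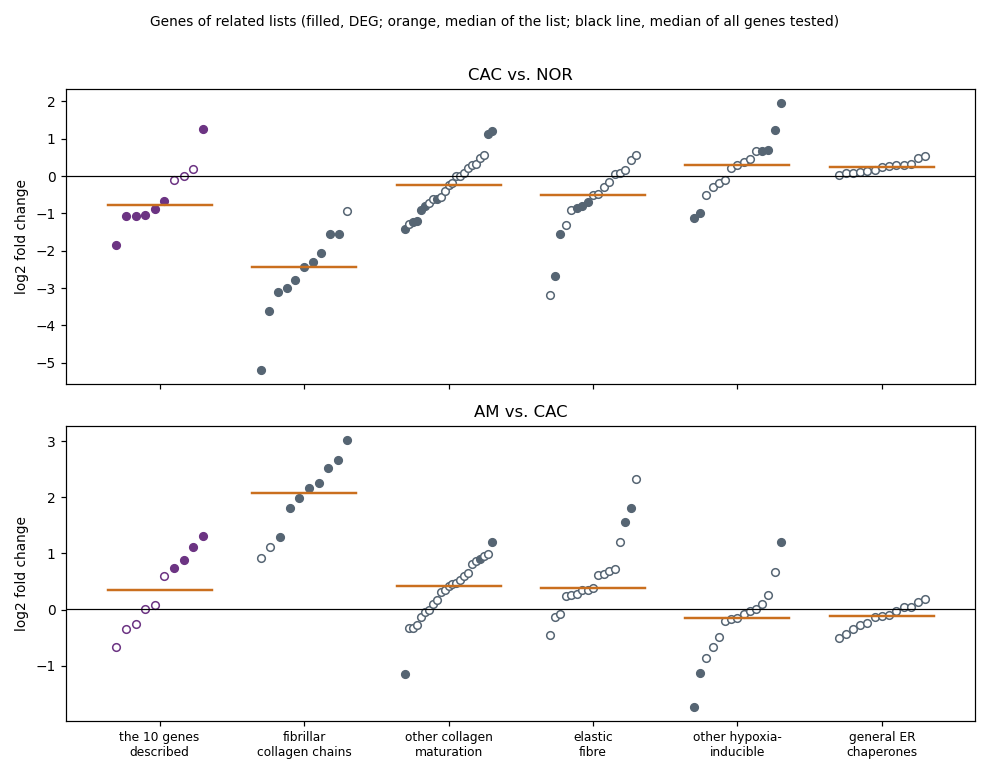
Log2 fold change (y axis, edgeR) of each gene tested in 6 lists (x axis) in CAC vs. NOR (top) and AM vs. CAC (bottom). Filled points are DEGs, the orange line is the median of the list and the black line that of all genes tested. In CAC vs. NOR the fibrillar collagen chains lie lowest, with a median of -2.44.

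To set each gene against its substrate, the mean log2 CPM of Col1a1, Col1a2 and Col3a1 was subtracted from its log2 CPM in each mouse. This collagen mean was 9.63 ± 0.28 in NOR, 6.39 ± 0.32 in CAC and 9.10 ± 0.42 in AM mice (SD, n = 4), and in KD replicates 1 to 4 it was 9.63, 7.07, 6.91 and 9.84. Relative to the collagen transcripts all 10 genes were higher in every CAC mouse than in every NOR mouse, but so were 93.0% of all genes. The differences on this scale were smallest for Loxl2 (1.41) and largest for Lox (4.41). Relative to CAC mice all 10 were lower in every AM mouse, as were 87.7% of genes, by 1.41 (Loxl2) to 3.31 (Lox). In KD vs. CAC mice 5 of 10 were lower in every mouse (Plod1, Pcolce, Lox, Loxl1 and Loxl2), as were 46.1% of genes. Without KD replicate 3 that count was 8, beside 66.4% of genes, and without CAC replicate 1 it was 8, beside 66.0%.

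Lox made up a larger share of the lysyl oxidase transcripts in every CAC mouse than in any other mouse. In FPKM, Lox made up 14.0% to 17.5% of the sum of the 3 genes in NOR, 44.2% to 60.7% in CAC, 20.7% to 34.0% in AM and 15.6% to 37.5% in KD mice. The CAC range lay above those of the other groups. Loxl2 made up 37.9% to 42.4% in NOR, 12.8% to 17.9% in CAC, 23.9% to 40.9% in AM and 24.2% to 35.9% in KD mice, with the limit given above for its near copy. The sum itself was 31.8 to 41.0 FPKM in NOR and 22.7 to 25.3 FPKM in CAC replicates 1 to 3, but 44.6 FPKM in CAC replicate 4. In KD mice it was 40.4, 16.9, 12.1 and 42.0 FPKM. These shares were chosen after the values had been seen and were not tested.

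**Figure D4:**
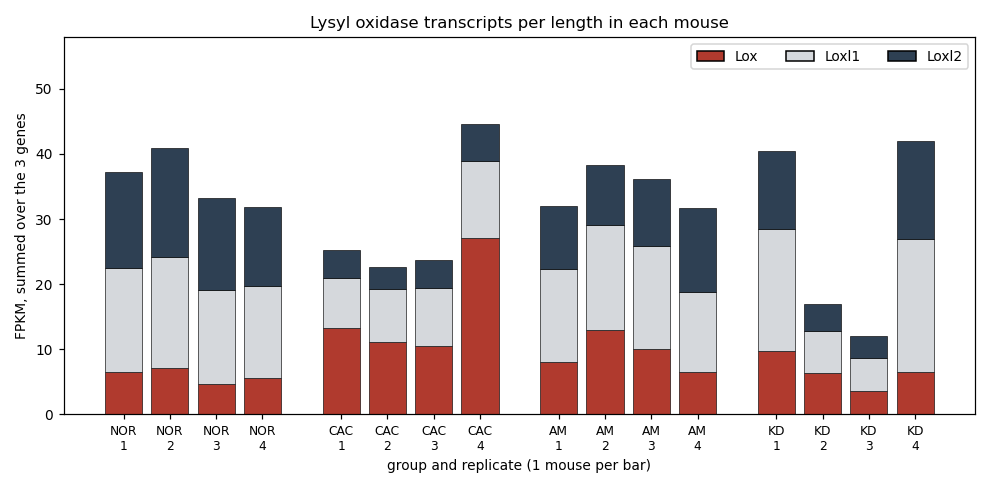
FPKM (y axis) of Lox, Loxl1 and Loxl2 stacked for each mouse (x axis, group and replicate). The Lox part is 44.2% to 60.7% of the bar in CAC mice and at most 37.5% in any other mouse, and the bars of KD replicates 2 and 3 are the shortest.

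Per length of transcript the 10 genes covered a wide range. In NOR mice Pcolce was highest at 88.6 ± 3.62 FPKM, followed by Serpinh1 (64.1 ± 7.40) and Plod1 (52.2 ± 4.12), whose ranges overlapped, and by P4ha2 (25.0 ± 1.90, SD, n = 4). Next came P4ha1 (16.3 ± 2.24), Loxl1 (15.4 ± 1.35), Loxl2 (14.4 ± 1.97) and Bmp1 (13.0 ± 1.02), whose ranges overlapped from each to the next, and below them Lox (5.93 ± 1.05) and Plod2 (1.41 ± 0.328). In CAC mice the order was Plod1 (52.5 ± 9.64), Pcolce (46.2 ± 12.3), Serpinh1 (33.1 ± 3.17), P4ha2 (27.2 ± 1.90), Lox (15.5 ± 7.82), P4ha1 (11.2 ± 1.81), Loxl1 (9.17 ± 1.85), Bmp1 (6.75 ± 1.78), Loxl2 (4.42 ± 0.915) and Plod2 (1.71 ± 0.388). Neighbours in this order overlapped except Serpinh1 with P4ha2 and Loxl2 with Plod2. Lox thus stood above Loxl1 and Loxl2 in every CAC mouse and below both in every NOR mouse.

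Across the 16 mice a group of 5 genes varied together. Among Serpinh1, Bmp1, Pcolce, Loxl1 and Loxl2 the 10 pairs had Pearson's r of 0.726 to 0.940 on log2 CPM, and of 0.516 to 0.898 on deviations from the group means. Lox had r of -0.420 to -0.047 with these 5 genes over all mice, but 0.395 to 0.578 within groups. P4ha1 and P4ha2 had r of 0.683 over all mice and 0.857 within groups. These correlations are descriptions over 16 mice that share groups, strains and libraries. Of 13188 genes with a mean of at least 1 CPM, those most like Bmp1 over the 16 mice were Adamts2 (r 0.977), P3h3 (0.973) and Olfml2b (0.966), those most like Pcolce were Col14a1 (0.973), P3h3 (0.968) and Clec3b (0.967), and those most like Loxl2 were Col5a2 (0.972), Col5a1 (0.967) and Col6a2 (0.961). Loxl1 was most like Antxr2 (0.969), Cd248 (0.959) and Adamts5 (0.949), and Serpinh1 like Lurap1l (0.921), Islr (0.914) and Aspa (0.913). Other genes stood closest to Lox (Abca4, Sh3tc1 and Cd36, 0.864 to 0.876), to P4ha1 (Stip1, Ankrd40 and Acot13, 0.930 to 0.953), to P4ha2 (Atp6v1g1, Rraga and Hoxc9, 0.946 to 0.957), to Plod1 (Sparcl1, Snx16 and Chrnd, 0.868 to 0.904) and to Plod2 (Sec14l1, Picalm and Cd59a, 0.826 to 0.847).

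**Figure D5:**
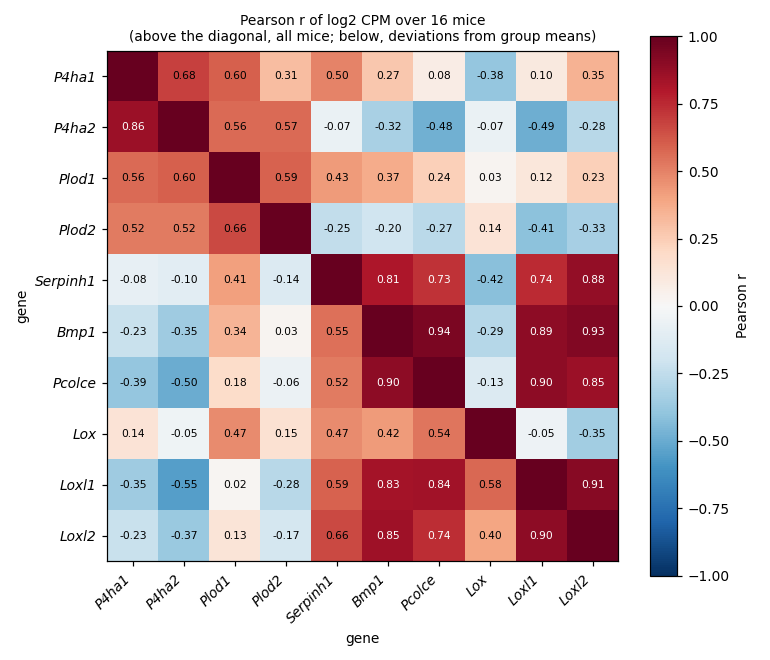
Pearson's r of log2 CPM between the 10 genes (both axes) over 16 mice, above the diagonal for all mice and below it for deviations from the group means. Serpinh1, Bmp1, Pcolce, Loxl1 and Loxl2, set together after the values had been seen, form a block with r of at least 0.516 on both sides. The r of Lox with these 5 genes was below 0 above the diagonal and 0.395 to 0.578 below it.

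Other lists that could bear on these enzymes were counted in the same fits. Of 17 elastic fibre genes, whose products the lysyl oxidases also cross-link, 5 fell in CAC mice (list median -0.51; Mfap4 -2.67, Fbn1 -1.55, Efemp1 -0.86, Mfap2 -0.81 and Efemp2 -0.69 on the log2 scale) and 2 of these, Mfap4 (1.81) and Fbn1 (1.56), were upregulated in AM vs. CAC mice. Of 15 other hypoxia-inducible genes 4 rose in CAC mice (list median 0.29; Egln3 by 1.96, Bnip3 by 1.24, Ndrg1 by 0.69 and Adm by 0.67) and 2 fell (Car9 -1.13 and Ldha -0.98). Relative to CAC, in AM mice Egln3 (-1.74) and Bnip3 (-1.13) were downregulated and Car9 (1.20) was upregulated. Of 15 TGF-beta ligands, receptors and early targets 1, Postn, fell in CAC mice (-1.005), and 0 were DEGs in AM vs. CAC, where Tgfbr1 (-0.54, FDR 0.0220, edgeR) was below the fold change limit and Postn at 1.07 (FDR 0.0580).

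Serpinh1 is a chaperone for collagen, and general chaperones of the endoplasmic reticulum were counted beside it. Of 13 such genes 0 were DEGs in CAC vs. NOR, and all 13 had log2 differences above 0, between 0.02 and 0.53 (median 0.25), with Dnajb9 (0.53, edgeR FDR 0.00736) and Canx (0.48, FDR 0.0338) below the fold change limit. For AM mice relative to CAC 0 were DEGs, with a median of -0.12 and the smallest p in Dnajb9 (-0.51, edgeR FDR 0.0530) and Canx (-0.44, FDR 0.0742).

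Against NOR mice 0 of the 10 enzyme genes were DEGs in AM or in KD mice, and 0 in AM vs. KD, in edgeR, DESeq2 or limma-voom. That is not particular to these genes, since over all genes 0 of 14738 (AM vs. NOR), 0 of 14748 (KD vs. NOR) and 0 of 14745 (AM vs. KD) were DEGs in edgeR and in limma-voom, and 70, 31 and 1 in DESeq2. In edgeR 4 had an unadjusted p below 0.05 in AM vs. NOR (P4ha1, Serpinh1, Lox and Loxl2, with values given above), where 9.19% of genes did, 1 in KD vs. NOR (Serpinh1), where 3.54% did, and 0 in AM vs. KD, where 1.11% did. A p above the limit does not show that the groups were alike, and in the KD group the SD of Pcolce (41.3 CPM), Loxl1 (21.9) and Loxl2 (20.9) lay beside means of 75.8, 40.6 and 35.1 CPM.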

How the data were processed

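Gastrocnemius RNA was sequenced in 16 libraries, each taken as 1 mouse, on an Illumina HiSeq2500 after oligo(dT) enrichment. The deposited table gives for each gene and library a read count and an FPKM value (reads scaled by transcript length and library size) made by the authors. The submitters' processing notes name fastp, Bowtie2, HISAT2 and StringTie 1.3.1 and the builds mm9 and GRCm38. The counting tool, annotation and strand setting are not given in the sources used here. Gene positions came from GENCODE M21 (GRCm38), to which 21905 of 21923 identifiers matched.

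Counts of the 8 libraries of a comparison were fitted in edgeR 4.0.16 (R 4.3.3) with TMM factors, filterByExpr (minimum count 10, minimum total 15) and the quasi-likelihood F test, in place of NOISeq, the tool of the study. P-values were adjusted over all genes tested by Benjamini-Hochberg, and the SE is the log2 fold change divided by the root of F. The limits for DEGs were 0.05 for the FDR and 1.5 for an increase, as in the study, and for a decrease a fold of 0.667, the inverse of 1.5, which the study rounds. CPM of 4 mice against 4 were compared by a two-sided exact permutation test (70 arrangements, smallest p 0.0286). Log2 CPM used a prior count of 2. DESeq2 1.42.0 and limma 3.58.1 (voom), other scalings and filters, a strain covariate, a replicate block, single strains and leaving out each library were alternatives. The scripts were tested on simulated data. Python 3.11.15 with numpy 2.4.6, pandas 2.3.3 and matplotlib 3.10.9 was used for levels and plots.

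The 10 genes and the lists were chosen with earlier results of these data known. Named were all 10 genes, in each list of related genes the DEGs or, with none, the 2 genes of smallest p (for CAC vs. NOR and AM vs. CAC), and for each of the 10 the 3 genes of highest correlation. Cell type markers are given by counts, medians and sums, with only some DEGs and a few other markers named. Since the labels do not say that libraries came from separate mice, p-values measure the spread between libraries.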

Additional observations from a re-analysis of the deposited data

How the results depend on the processing

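Of 878 values of single genes under the alternatives, 742 kept their direction and, where tested, side of the limit. Of the others, 89 were no longer past it, 3 newly passed it and 44 turned direction. FPKM ratios had no test and were judged by direction alone. Most of the 878 values had no call to lose. Of 24 alternatives in AM vs. CAC, Bmp1 lost its call in 15, Pcolce in 14, Loxl1 in 15 and Loxl2 in 5. Of 25 in CAC vs. NOR, P4ha1 lost it in 14, Lox in 11, Pcolce and Loxl1 in 4, Serpinh1 in 3, and Bmp1 and Loxl2 in 2. In CAC vs. NOR the number of DEGs among the 10 genes was 7, and 5 to 7 with a library left out, 4 with all 16 libraries in 1 fit (without P4ha1, Pcolce and Loxl1), 3 in the mice labelled C57BL/6 and 0 in those labelled BALB/c (2 mice against 2), where 1204, 247 and 0 of all genes were DEGs. In AM vs. CAC it was 4, and 1 to 4 with a library left out, 2 with no filter on low counts or with a fold change limit of 2, 1 with strain as a covariate (Loxl2), and 0 with the replicate block, with all 16 libraries and in either strain alone, where of all genes 0, 231 and 0 were DEGs. Deviations of libraries of the same number had an r of 0.685, 0.183, 0.424 and -0.233 in CAC vs. NOR (replicates 1 to 4) and of -0.704 to 0.069 against CAC in AM and KD, so that the numbers were not taken to pair the mice. With the replicate block the count in CAC vs. NOR was 5 (without P4ha1 and Lox) and in the other comparisons 0. DEGs over all genes in AM vs. CAC were 537, but 1119 in DESeq2, 231 with all 16 libraries, 212 to 447 with a library left out and 0 with the block, and in KD vs. CAC 1, but 340 in DESeq2 and 145 with all 16 libraries. In CAC vs. NOR they were 1386, but 1921 in DESeq2, 1140 with the block and 728 to 1272 with a library left out. Libraries were also split at 10 CPM of lymphocyte markers, which was chosen after seeing the data. Below that level CAC vs. NOR sets CAC replicates 1 and 4 against NOR replicate 1 alone, so only log2 values are given. They were -1.83 (Loxl2) to -0.69 (P4ha1) for the DEGs that fell and 1.37 for Lox. Above it, with CAC replicates 2 and 3 against NOR replicates 2 to 4, 5 of the 10 were DEGs (398 of all genes). In AM vs. CAC above it, with all AM mice against CAC replicates 2 and 3, 0 of the 10 were (18 of all genes). KD vs. CAC genes apart relative to collagens were 5, but 9 with Col1a1 alone (68.3% of all genes), 2 with Col3a1 alone (15.5%) and 5 to 8 with a library left out. The cause was not tested, beyond the fewer mice in the smaller fits. Scaling by library totals only moved the median of all genes to 0.14 in CAC vs. NOR and -0.11 in KD vs. CAC.

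Values that turned direction are log2 values of genes that were no DEGs or came from split libraries. In CAC vs. NOR, P4ha2 was at 0.12 (library totals, FPKM), 0.0080 (limma-voom), 0.0060 (no filter), 0.000656 (strain covariate), 0.077 (BALB/c) and -0.068 to 0.12 with a library left out, Plod1 at 0.0084 (library totals) and 0.0083 (FPKM), and Plod2 at -0.23 (lymphocyte markers of at least 10 CPM). In AM vs. CAC, Plod1 was at -0.042 (library totals), -0.043 (FPKM), -0.062 (C57BL/6) and -0.074 to 0.14 with a library left out, P4ha1 at -0.071 (C57BL/6) and -0.031 to 0.19 with a library left out, and Plod2 at 0.048 (lymphocyte markers of at least 10 CPM). In KD vs. CAC, P4ha2 was at -0.11 (library totals, FPKM), -0.025 (limma-voom), -0.019 (replicate block), -0.058 (C57BL/6), -0.34 (lymphocyte markers of at least 10 CPM) and -0.13 to 0.21 with a library left out. Plod2 there was at -0.11 (library totals, FPKM), -0.042 (C57BL/6), -0.033 (lymphocyte markers under 10 CPM) and -0.11 to 0.16 with a library left out. With the libraries under 10 CPM, Plod1 was at -0.00341, Bmp1 at -0.16, Pcolce at -0.38, Loxl1 at -0.49 and Loxl2 at -0.15.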
